A study of Mus musculus with 72 samples.

Results

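The arrays described here are 8 of the 72 Illumina arrays of mouse adipose tissue, with a low signal of Ucp1, and they were set against 16 arrays that carry the mesothelial signal of perigonadal fat. Both sides were selected on measured values. The Ucp1-low arrays are those with a log2 signal of Ucp1 under 9 and of Cdkn2a under 8 that are not among the mesothelial-signal arrays. The 16 mesothelial-signal arrays are a fixed set of 16 mouse numbers. The comparison asks whether fat in which Ucp1 is low resembles perigonadal fat. The highest Ucp1 signal inside the rule was 7.79 and the lowest outside it was 11.35. For Cdkn2a, which encodes cell cycle inhibitors, the highest signal inside was 5.72 and the lowest outside was 9.30. Another 5 arrays of low Ucp1 were left out by the Cdkn2a limit.

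RNA of interscapular brown fat (BAT) and perigonadal white fat (WAT) was measured in mice that lack triglyceride lipases in adipose tissue, with 1 array per sample. HSLAKO mice carry 2 floxed alleles of Lipe, the gene of hormone-sensitive lipase, ATGLAKO mice lack adipose triglyceride lipase (Pnpla2), and DAKO mice lack both. Cre was driven by the Fabp4 promoter, which is also active in cells other than adipocytes such as macrophages, and the control mice carried the same Fabp4-Cre transgene. All were on a C57BL/6J background. By their labels the 8 Ucp1-low arrays were HSLAKO BAT at 7 months (replicates 1 and 2 of 4), HSLAKO BAT at 12 months (replicate 4 of 4), DAKO BAT at 12 months (replicates 2 and 4 of 4), DAKO BAT at 14 months (replicates 4 and 5 of 5) and DAKO WAT at 3 months (replicate 2 of 4). The arrays of DAKO BAT at 12 and 14 months are of the ages at which the study describes liposarcoma, a malignant tumor of fat. The 16 mesothelial-signal arrays were labelled ATGLAKO BAT at 7 months (2 of 4), ATGLAKO BAT at 12 months (1 of 4), ATGLAKO WAT at 3 months (4 of 5), control BAT at 7 months (4 of 4), control BAT at 12 months (4 of 4) and control WAT at 3 months (1 of 3). Thus 7 of the 8 Ucp1-low arrays and 11 of the 16 mesothelial-signal arrays were labelled brown. No Ucp1-low array was labelled control or ATGLAKO and no mesothelial-signal array HSLAKO or DAKO, so genotype and side cannot be told apart. The 5 arrays labelled control BAT at 3 months served as the reference for brown fat. They differ from all 8 Ucp1-low arrays in genotype and from the 7 labelled brown also in age. In differences from this reference, genotype and age can therefore not be told apart from low Ucp1. The 11 mesothelial-signal arrays labelled brown were likewise older than the reference.

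Brown adipocytes burn fatty acids for heat through Ucp1, the uncoupling protein of their mitochondria, and they arise from a lineage close to that of skeletal muscle. White adipocytes store triglyceride and secrete hormones such as leptin (Lep). Fat inside the abdominal cavity is covered by mesothelium, a sheet of epithelium-like cells that express Upk3b, Wt1 and Msln, and adipose depots keep the transcription factors of the body region in which they formed. In bulk tissue, fewer cells of a type and less RNA per cell cannot be told apart.

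All levels are log2 signals after background correction and quantile normalization (neqc), and a gene is called above background on an array at a detection p under 0.05. Median raw signals did not overlap between the sides. They ran from 94.7 to 115.7 on the Ucp1-low arrays, against 121.2 to 160.6 on the mesothelial-signal arrays, and from 101.1 to 104.0 in control BAT at 3 months. The share of probes above background was 47.4 to 51.2% on the Ucp1-low arrays, 50.7 to 54.8% on the mesothelial-signal arrays and 45.2 to 46.8% in control BAT. The part of these differences in the results was not tested. Because values on these arrays chose both sides, every difference between them is a description without a test.

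On the 11 mesothelial-signal arrays labelled brown, the markers and the tissue label went apart. On the Ucp1-low arrays the low Ucp1 was set by the rule. Ucp1 ran from 5.17 to 7.79 (median 6.27) on the Ucp1-low arrays, against 4.24 to 8.25 (median 4.69) on the mesothelial-signal arrays and 13.61 to 13.82 in control BAT at 3 months. Both sides, labelled brown for the most part, thus had a Ucp1 signal far under that of brown fat, and they overlapped each other. Upk3b, a uroplakin of mesothelial cells, ran from 4.44 to 5.01 (median 4.72) on the Ucp1-low arrays and from 8.96 to 10.91 (median 9.96) on the mesothelial-signal arrays. Lep was at 9.52 to 12.98 (median 11.27) on the Ucp1-low arrays, against 8.67 to 13.91 (median 12.87) on the mesothelial-signal arrays. In control BAT at 3 months Lep ran from 6.05 to 9.07, below the Ucp1-low arrays and overlapping the mesothelial-signal arrays. In HSLAKO and DAKO BAT at 3 months, with Ucp1 at 11.38 or more, Lep ran from 10.62 to 12.09. Across the 8 tested genes of a fixed mesothelial marker set, the mean signal was 4.33 to 4.42 on the Ucp1-low arrays and 6.20 to 7.77 on the mesothelial-signal arrays, 11 of which were labelled brown. Results without the arrays labelled white are given with the processing alternatives.

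**Figure D1:**
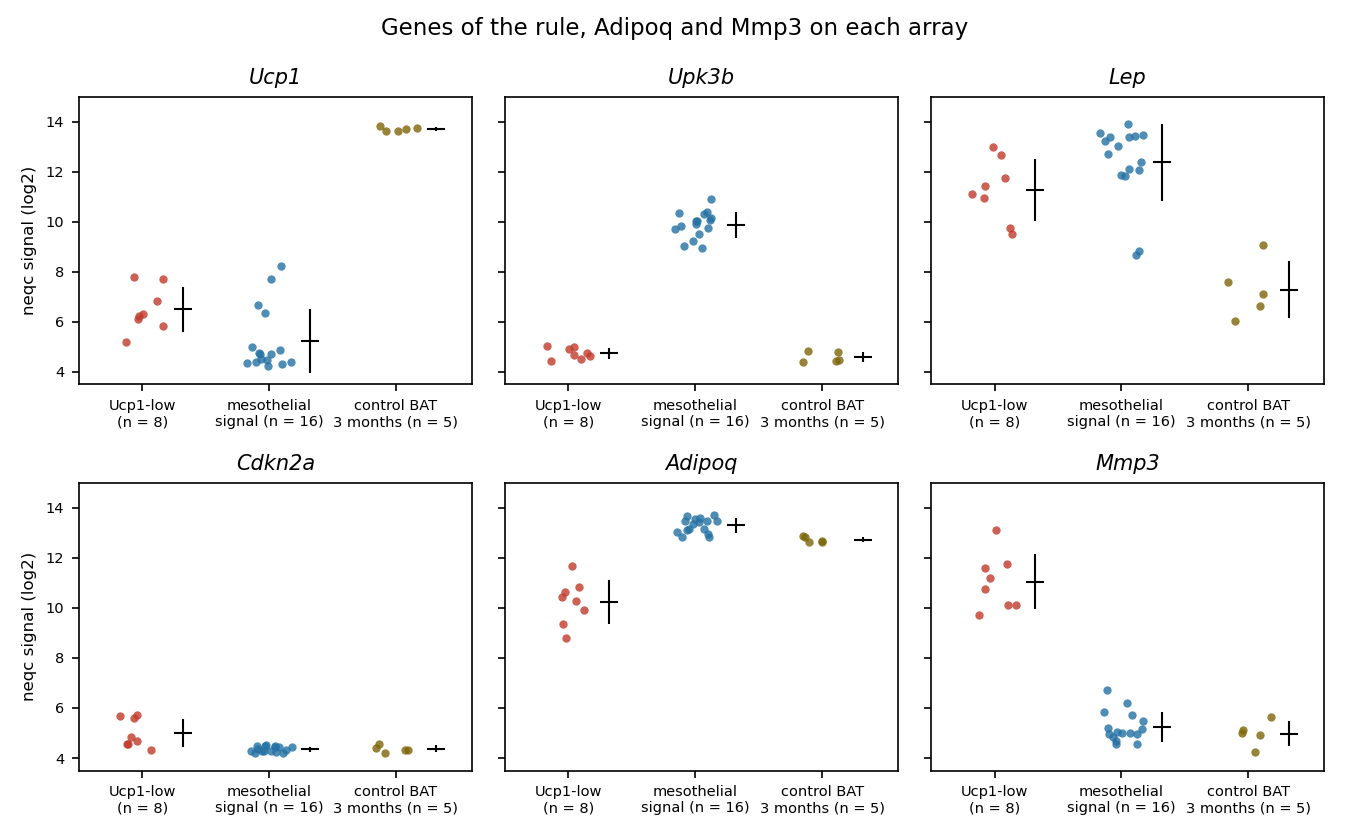
Log2 signal of 6 genes on each of the 8 Ucp1-low, 16 mesothelial-signal and 5 control BAT arrays at 3 months (points), with the mean ± SD of each group (black). Ucp1 was low on both sides and Upk3b ran from 8.96 to 10.91 on the mesothelial-signal arrays and from 4.44 to 5.01 on the Ucp1-low arrays, while Mmp3 ran from 9.73 to 13.12 on the Ucp1-low arrays.

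The targeted genes were lower on the Ucp1-low arrays than in control BAT, and only one of them also had a lower mean than on the mesothelial-signal arrays by more than 1. Lipe was at 4.61 to 5.70 (median 5.11) on the Ucp1-low arrays, with 5 of 8 above background, against 5.34 to 10.05 (median 7.49) on the mesothelial-signal arrays and 9.31 to 9.95 in control BAT at 3 months. Pnpla2 was at 10.06 to 11.48 (median 11.10) on the Ucp1-low arrays, against 9.04 to 13.50 (median 12.04) on the mesothelial-signal arrays and 12.91 to 13.31 in control BAT. The 5 Ucp1-low arrays labelled DAKO had Pnpla2 signals from 10.06 to 11.30. The 3 labelled HSLAKO, a genotype in which Pnpla2 was not targeted, had signals from 10.60 to 11.48, below control BAT and overlapping DAKO. Where the probes lie relative to the deleted exons was not examined.

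Over all 12265 genes, 430 were higher (3.51%) and 506 lower (4.13%) on the Ucp1-low than on the mesothelial-signal arrays, with no overlap between the arrays and a mean difference of at least 1. These shares are the background for the counts between the sides below. By the same measure the counts against control BAT at 3 months were 1546 higher (12.6%) and 1510 lower (12.3%). Overlap is less likely with 5 arrays of the same label than with 16 arrays of several labels. Counts against control BAT, here and in the lists below, can therefore not be compared in size with counts between the sides. The root mean square difference over all genes does not use overlap. It was 1.21 to 1.47 from control BAT and 0.822 to 1.06 from the mesothelial-signal mean. The median difference over all genes was 0.02 between the sides. Scaling the arrays to a common median in place of quantile normalization moved it to -0.26 and turned the counts to 68 higher and 1545 lower, so that 4.22% in place of 45.9% of these genes were higher. Lists whose median changed sign under this scaling are named where they are described.

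Genes of the mesothelium were lower on the Ucp1-low arrays, and the signal of these genes named the other side. Of 14 tested mesothelial markers, 0 were higher and 10 lower without overlap, and the median difference was -2.14. On the Ucp1-low arrays 6 of the 14 were above background on no array, while Igfbp6, which binds insulin-like growth factors, ran from 6.55 to 8.95, against 9.71 to 10.74 on the mesothelial-signal arrays. Against control BAT at 3 months the median difference of the same list was 0.02. Wt1, a transcription factor of mesothelium and the urogenital ridge, was above background on 0 of 8 Ucp1-low and 16 of 16 mesothelial-signal arrays. The Ucp1-low arrays ran from 4.22 to 4.36 and the mesothelial-signal arrays from 7.05 to 9.24, at least 7.70-fold lower on the Ucp1-low arrays. Such a bound takes, for each array of the dimmer side, the weakest signal that still counted as above background there. Upk1b, another uroplakin, was likewise above background on 0 of 8 and 16 of 16 arrays and at least 6.98-fold lower on the Ucp1-low arrays.

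Among depot position genes, those that mark visceral and posterior fat lay nearer to control BAT on the Ucp1-low arrays. Tcf21, a transcription factor of visceral white preadipocytes, ran from 4.23 to 4.61 (median 4.32) on the Ucp1-low arrays, against 6.43 to 7.96 (median 6.97) on the mesothelial-signal arrays and 4.23 to 4.57 in control BAT at 3 months. It was above background on 0 of 8 Ucp1-low arrays and at least 4.84-fold lower there than on the mesothelial-signal arrays. Hoxc9, a homeobox gene of the posterior trunk, ran from 4.27 to 6.35 (median 5.35) on the Ucp1-low arrays and from 7.05 to 9.37 (median 7.99) on the mesothelial-signal arrays. Control BAT lay at 4.28 to 4.44, above background on 0 of 5 arrays, so 7 of 8 Ucp1-low arrays with Hoxc9 above background differed from both. Gata6, a zinc finger factor of visceral mesoderm, was at 5.53 to 6.34 on the Ucp1-low arrays, against 7.57 to 9.48 on the mesothelial-signal arrays and 4.67 to 5.49 in control BAT. Hoxa7 (-2.33) and Hoxb5 (-2.04), homeobox genes of more anterior segments, were lower than on the mesothelial-signal arrays, and both were lower without overlap than in control BAT too. In all, 5 of 25 tested depot genes were lower and 0 higher without overlap between the sides (median -0.55).

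Zic1 and Lhx8, transcription factors that mark interscapular brown fat against white depots, showed the opposite order. Lhx8 ran from 5.57 to 6.38 (median 5.92) on the Ucp1-low arrays, against 4.31 to 4.66 (median 4.46) on the mesothelial-signal arrays and 5.36 to 6.18 in control BAT at 3 months. Zic1 ran from 4.59 to 6.10 (median 5.39) on the Ucp1-low arrays, with 6 of 8 above background, against 4.20 to 4.40 with 0 of 16 above background on the mesothelial-signal arrays. In control BAT it ran from 5.90 to 6.84. The Ucp1-low arrays thus overlapped control BAT at both genes and overlapped the mesothelial-signal arrays at neither. The Ucp1-low array labelled DAKO WAT had 5.68 for Lhx8, 6.10 for Zic1, the highest of the 8, and 5.42 for Hoxc9.

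**Figure D2:**
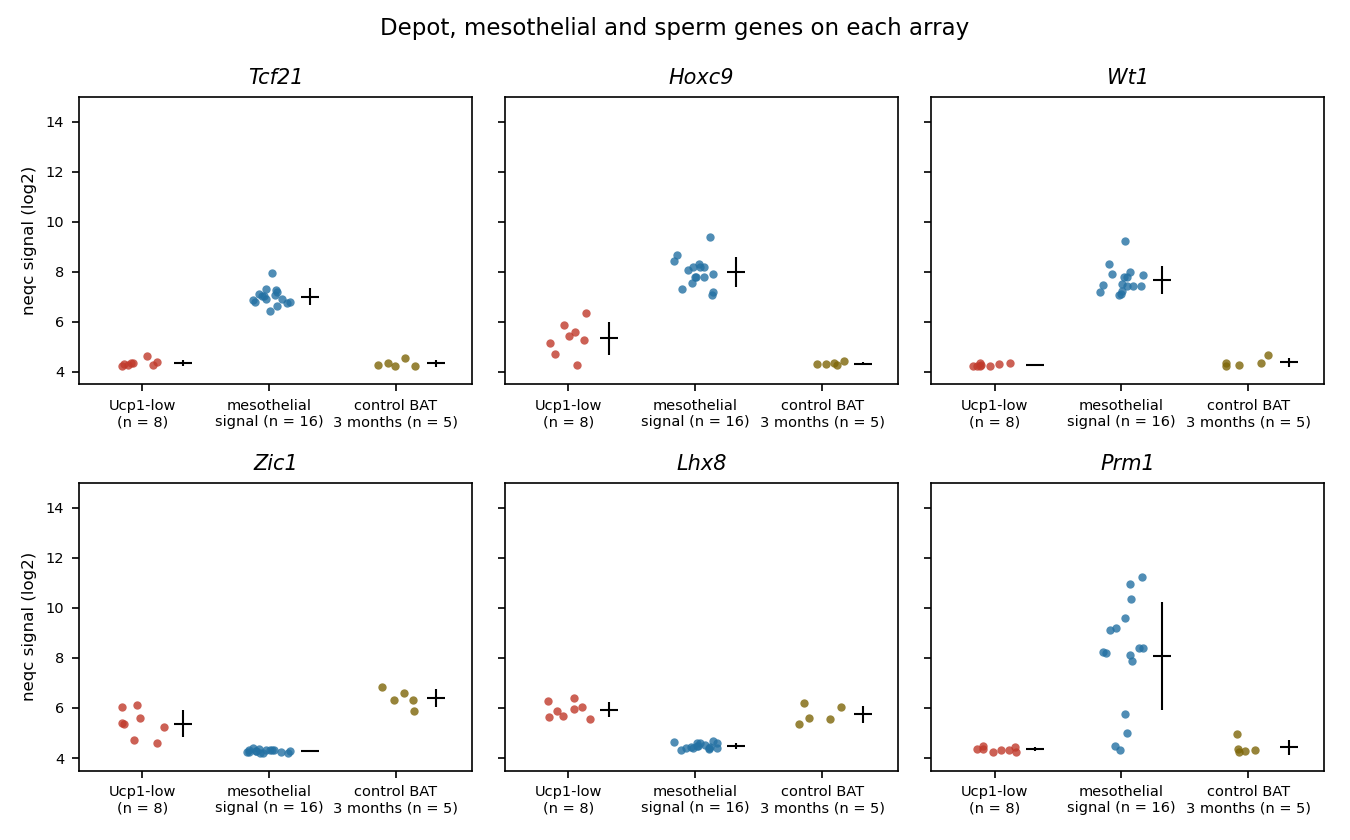
Log2 signal of depot, mesothelial and sperm genes on each of the 8 Ucp1-low, 16 mesothelial-signal and 5 control BAT arrays at 3 months (points), with the mean ± SD (black). Tcf21 and Wt1 were near background on the Ucp1-low and control BAT arrays, and Lhx8 ran from 5.57 to 6.38 on the Ucp1-low arrays and from 4.31 to 4.66 on the mesothelial-signal arrays.

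The thermogenic program was low on both sides. Of 21 tested brown fat genes, 16 were lower and 0 higher without overlap on the Ucp1-low arrays than in control BAT at 3 months. The median difference was -3.51. Ucp1, which chose these arrays, is among the 16, and genes that vary along with Ucp1 were selected with it. The low level against control BAT is therefore in part given by the rule and is no test. Between the sides the median difference was 0.04, and -0.25 with scaling to a common median. Zic1 and Lhx8 were higher and Ebf2, an early factor of the brown lineage, was lower without overlap. Cidea, a lipid droplet protein abundant in brown fat, ran from 5.88 to 7.73 (median 6.42) on the Ucp1-low arrays, against 4.95 to 10.03 (median 5.52) on the mesothelial-signal arrays and 13.49 to 13.83 in control BAT. Elovl3, an elongase of fatty acids induced by cold, was above background on 0 of 8 Ucp1-low and 1 of 16 mesothelial-signal arrays, and its level in control BAT was 7.63 to 8.82. Ebf2 ran from 6.38 to 6.92 on the Ucp1-low arrays, against 7.48 to 8.75 on the mesothelial-signal arrays and 8.48 to 8.83 in control BAT. The largest mean differences in the list were those of Ckmt2 (4.24) and Fabp3 (2.86), whose arrays overlapped, with wide spread among the Ucp1-low arrays, and both are also genes of muscle.

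Genes of oxidative metabolism were low on both sides, and those that vary along with Ucp1 were selected with it on the Ucp1-low arrays. All 23 tested genes of fatty acid oxidation and the TCA cycle, and 34 of 40 respiratory chain genes, were lower without overlap on the Ucp1-low arrays than in control BAT at 3 months. Between the sides, 3 and 2 of them were lower, with medians of -0.53 and -0.51. Fh1 (-1.37), Etfb (-1.03) and Acads (-1.01) were the oxidation genes and Ndufb3 (-1.78) and Cox8a (-1.66) the respiratory chain genes. Acadl, the long-chain acyl-CoA dehydrogenase, went the other way without overlap by 0.99. It ran from 7.39 to 8.00 on the Ucp1-low arrays, against 6.34 to 7.10 on the mesothelial-signal arrays and 10.33 to 10.72 in control BAT.

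To place the Ucp1-low arrays between the 2 tissues, genes were taken that separate the mesothelial-signal arrays from control BAT at 3 months without overlap by a difference of at least 2. There were 396 genes higher (3.23% of all tested) and 243 lower (1.98%) on the mesothelial-signal arrays, and values of the Ucp1-low arrays were not used to take them. At 512 of these 639 genes (80.1%) the mean of the Ucp1-low arrays lay nearer to the mesothelial-signal mean. Ucp1, which chose the Ucp1-low arrays, and Upk3b, which marks the other side, are among the 639 genes. Without both the count was 511 of 637 (80.2%). Leaving out these genes does not undo the selection, since genes that vary along with Ucp1 were selected with it. How far the share rests on such genes was not tested. Over the 639 genes, the share was 76.3% for genes higher and 86.4% for genes lower on the mesothelial-signal arrays. For each single Ucp1-low array it was between 74.3 and 82.6% (median 80.9%), against 91.9 to 100% for the mesothelial-signal arrays, which helped to choose the genes. The Ucp1-low mean lay beyond the mesothelial-signal mean at 342 genes and beyond control BAT at 40. The median gene lay 1.03 of the way from control BAT to the mesothelial-signal mean.

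**Figure D3:**
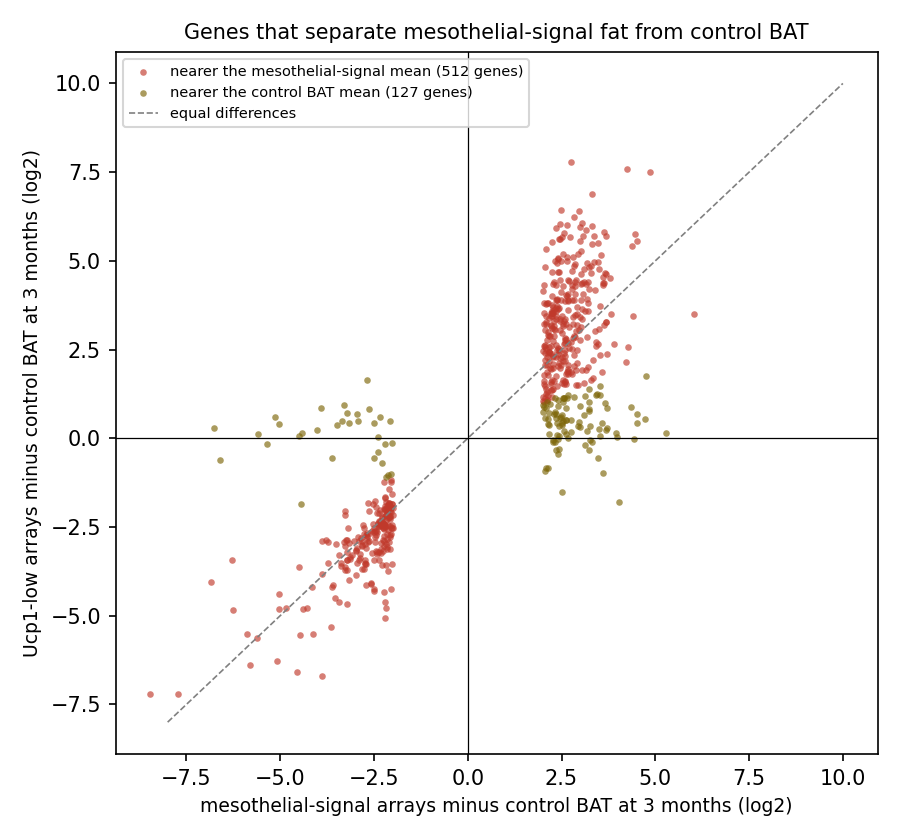
Mean log2 difference from control BAT at 3 months for the 639 separating genes, on the Ucp1-low arrays (vertical axis) and on the mesothelial-signal arrays (horizontal axis), each point a gene. Points on the dashed line differ equally from control BAT, and the 127 genes nearer to control BAT lie closer to the zero line of the vertical axis than to the dashed line.

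The 127 genes nearer to control BAT were of a few kinds. All 11 separating genes of the skeletal muscle list and all 3 depot genes higher on the mesothelial-signal arrays (Tcf21, Hoxc9 and Gata6) lay nearer to control BAT. So did 5 of 6 separating mesothelial genes, whose signal named that side, and 5 of 7 white fat genes, among them Agt (angiotensinogen) and Sncg (gamma-synuclein). The separating genes of the macrophage list (8 of 8), of collagens and matrix (11 of 11), of matrix proteases (6 of 6), of fatty acid oxidation (14 of 14) and of the respiratory chain (8 of 8) all lay nearer to the mesothelial-signal mean, as did 15 of 17 brown fat genes (14 of 16 without Ucp1). By the root mean square difference over all genes, the Ucp1-low arrays lay 0.324 to 0.595 from the mean of their own side. They lay 0.822 to 1.06 from the mesothelial-signal mean and 1.21 to 1.47 from control BAT. The most correlated array of each Ucp1-low array was another Ucp1-low array, and that of each mesothelial-signal array another mesothelial-signal array.

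Skeletal muscle genes had the largest median difference of the lists. Of 18 tested, 18 had a higher mean and 5 were higher without overlap on the Ucp1-low arrays, with a median difference of 3.85, while the median against control BAT was 0.37. Atp2a1, the calcium pump of fast muscle fibers, ran from 6.41 to 13.64 (median 12.91) on the Ucp1-low arrays, against 4.35 to 4.91 (median 4.55) on the mesothelial-signal arrays and 10.93 to 12.05 in control BAT at 3 months. Pvalb, a calcium buffer of fast fibers, had a mean difference of 5.98, Tpm2 (tropomyosin) one of 5.76, Mylpf (a myosin light chain) one of 5.73 and Tnnt3 (troponin T) one of 5.43. On the mesothelial-signal arrays these genes were at or near background, with Atp2a1 above it on 6 of 16, Pvalb on 9, Tpm2 on 1, Mylpf on 3 and Tnnt3 on 2, so that these differences depend on the background of the arrays. With its second probe Tpm2 had a difference of -0.10. The list mean split the Ucp1-low arrays, as the DAKO BAT arrays at 12 months (replicate 2) and at 14 months (replicate 4) had 5.83 and 5.52, and the other 6 ran from 9.29 to 11.71. On the mesothelial-signal arrays it ran from 5.26 to 6.21 and in control BAT from 8.60 to 9.68. Respiratory chain genes varied in the same arrays, with list means of 8.92 and 9.78 on these DAKO BAT arrays, 9.48 and 9.67 on both HSLAKO BAT arrays at 7 months and 10.46 to 10.75 on the other 4. Interscapular fat lies on the muscles of the back, and the part of muscle tissue in these signals was not tested.

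**Figure D4:**
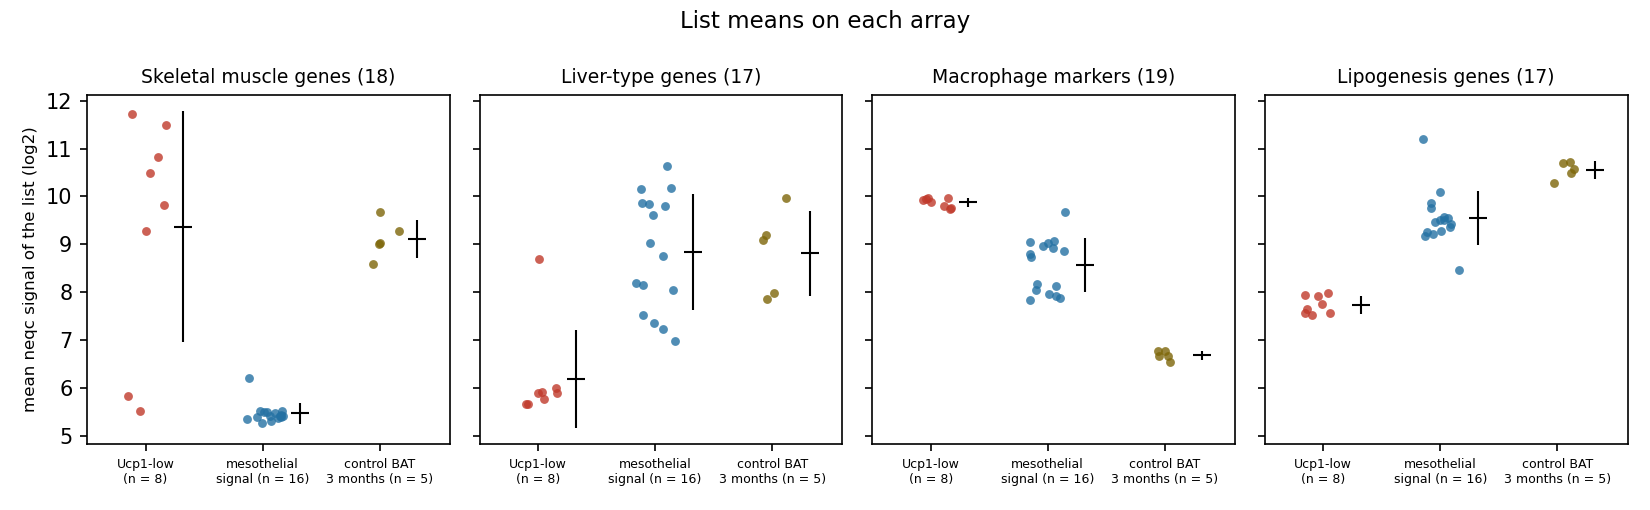
Mean log2 signal of 4 gene lists on each of the 8 Ucp1-low, 16 mesothelial-signal and 5 control BAT arrays at 3 months (points), with the mean ± SD of each group (black). On the skeletal muscle list 2 Ucp1-low arrays lie with the mesothelial-signal arrays, and on the macrophage list all 8 lie above every mesothelial-signal array.

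White fat hormones were lower on the Ucp1-low arrays than on the mesothelial-signal arrays. All 13 tested members had a lower mean, and 6 were lower without overlap, with a median difference of -2.54. Adipoq, the gene of adiponectin, ran from 8.78 to 11.65 (median 10.34) on the Ucp1-low arrays, against 12.83 to 13.72 (median 13.39) on the mesothelial-signal arrays and 12.63 to 12.87 in control BAT at 3 months. Agt ran from 4.31 to 5.77 on the Ucp1-low arrays, against 6.80 to 10.78 on the mesothelial-signal arrays and 4.24 to 5.48 in control BAT. Retn, the gene of resistin, was above background on 0 of 8 and 16 of 16 arrays and at least 3.78-fold lower on the Ucp1-low arrays. Slc7a10, an amino acid transporter of white adipocytes (-2.84), and Rbp4, a retinol carrier (-2.54), were lower without overlap. Lep was the member nearest to the mesothelial-signal level among those named, with a mean difference of -1.10 and overlapping ranges.

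Genes common to all adipocytes were lower on the Ucp1-low arrays than in both other groups. Of 23 tested, 7 were lower and 1 was higher without overlap against the mesothelial-signal arrays (median -1.58), and 20 were lower than in control BAT. Cidec, which enlarges lipid droplets, ran from 8.16 to 10.07 on the Ucp1-low arrays, against 11.49 to 13.55 on the mesothelial-signal arrays and 11.81 to 12.16 in control BAT. Plin1, the perilipin that guards the droplet from lipases, had a mean difference of -3.23 from the mesothelial-signal arrays, and Pparg, the master regulator of fat cell formation, one of -2.29. For Agpat2, an acyltransferase of triglyceride synthesis, it was -3.27. The exception was Cd36, a fatty acid receptor also present on macrophages, at 5.49 to 7.25 on the Ucp1-low arrays and 4.33 to 5.23 on the mesothelial-signal arrays. The latter values are near the background of the arrays, so this difference depends on it. Lpl, which releases fatty acids from lipoproteins, was at 13.85 to 14.04 on the Ucp1-low and 13.76 to 14.14 on the mesothelial-signal arrays.

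Genes of fatty acid synthesis were lower again. Of 17 tested, 8 were lower and 0 higher without overlap between the sides (median -1.72), and 12 were lower than in control BAT. Thrsp, a nuclear protein that goes with lipogenesis, ran from 4.86 to 6.72 (median 5.64) on the Ucp1-low arrays, against 8.94 to 13.79 (median 11.02) on the mesothelial-signal arrays and 13.36 to 13.67 in control BAT at 3 months. The mean difference from the mesothelial-signal arrays was -3.81 for Pcx (pyruvate carboxylase), -2.96 for Acaca (acetyl-CoA carboxylase) and -2.81 for Elovl6, an elongase. For Mlxipl, the transcription factor that responds to carbohydrate, it was -2.41. Each of these was lower without overlap than in control BAT as well.

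**Figure D5:**
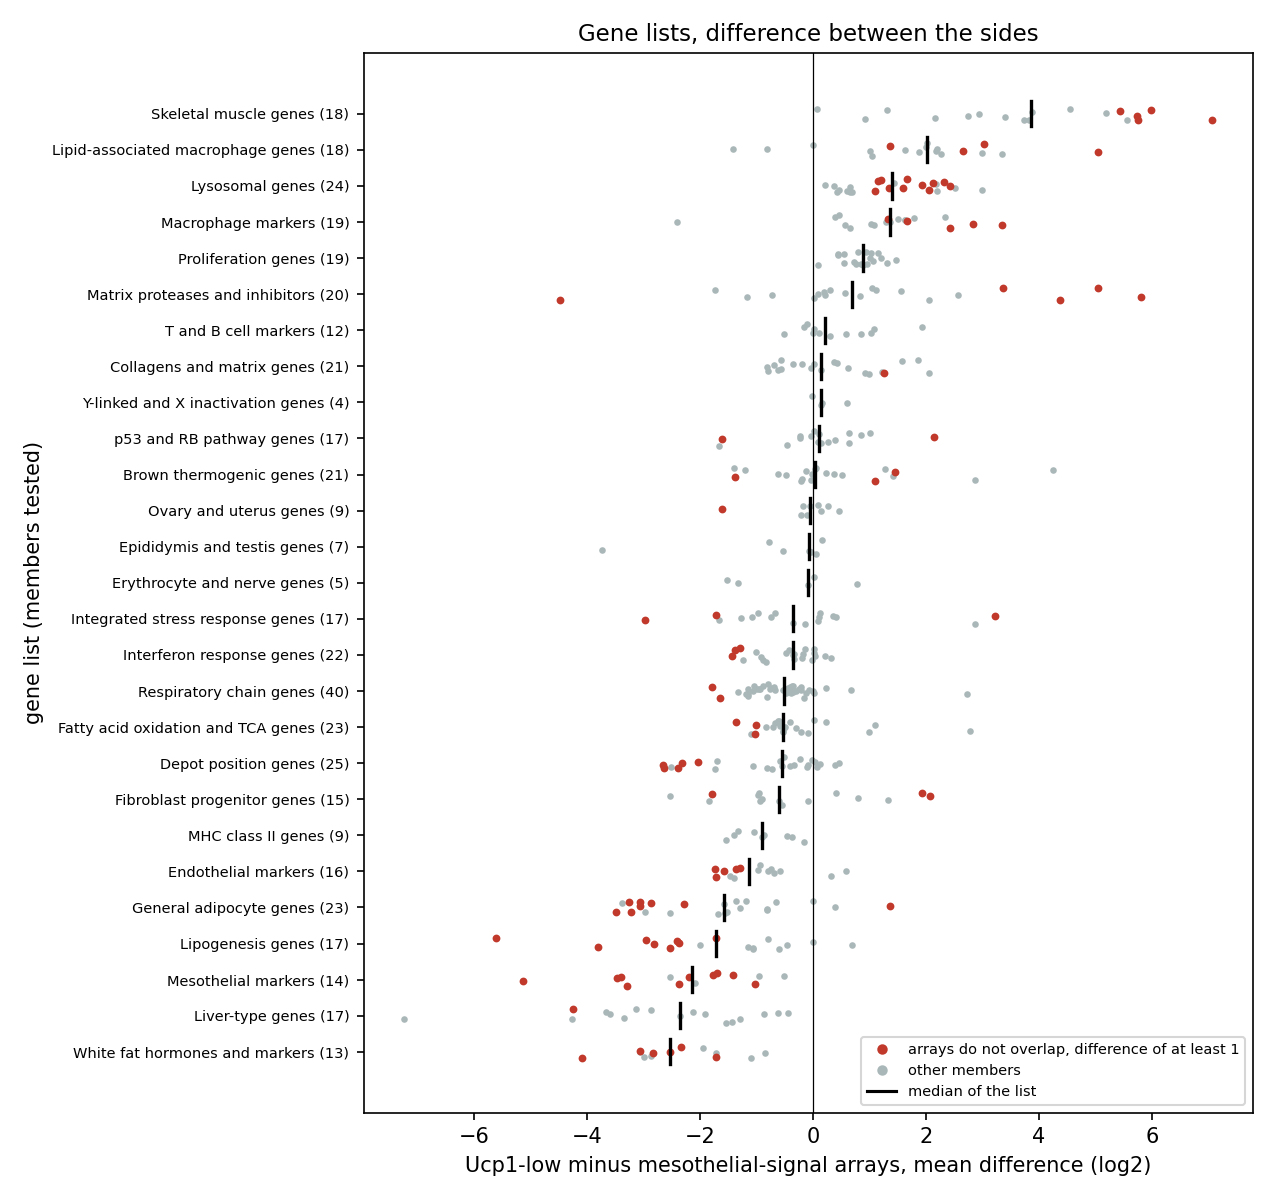
Mean log2 difference, Ucp1-low minus mesothelial-signal arrays, of each tested member of 27 gene lists (points), with list medians (black bars). Red points do not overlap between the sides and differ by at least 1; they fall to the right for muscle, macrophage and lysosomal genes and to the left for mesothelial, white fat, adipocyte and lipogenesis genes.

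Macrophage genes were higher on the Ucp1-low arrays than on both other groups. Of 19 tested macrophage markers, 5 were higher and 0 lower without overlap between the sides (median 1.37), and 16 were higher than in control BAT at 3 months. The list mean ran from 9.75 to 9.98 on the Ucp1-low arrays, against 7.84 to 9.67 on the mesothelial-signal arrays and 6.54 to 6.77 in control BAT. Clec7a, a receptor for fungal glucans, ran from 8.25 to 9.94 (median 9.11) on the Ucp1-low arrays and from 4.61 to 7.33 (median 6.12) on the mesothelial-signal arrays. Ctss, a cathepsin, was higher by 2.43 and Cd53, a tetraspanin of leukocytes, by 2.83. Cd163, a scavenger receptor of resident macrophages, had a mean difference of -2.40 with overlap, and Retnla, a product of macrophages activated by type 2 cytokines, ran from 4.86 to 7.30 on the Ucp1-low arrays, against 10.45 to 12.66 on the mesothelial-signal arrays and 6.88 to 8.04 in control BAT.

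Lipid-associated macrophage genes showed the same order, with 4 of 18 tested genes higher and 0 lower without overlap (median 2.01). Gpnmb, a glycoprotein of lipid-laden macrophages, ran from 13.75 to 14.02 on the Ucp1-low arrays, against 8.14 to 13.65 on the mesothelial-signal arrays and 5.81 to 7.30 in control BAT. For DAKO mice the study considers adipocytes its likely source, with a part from macrophages possible. Knockout arrays of high Ucp1 reached similar levels. At 3 months Gpnmb ran from 10.82 to 13.79 in HSLAKO BAT and from 11.12 to 13.83 in DAKO BAT. Trem2, their lipid receptor, had a mean difference of 3.34 with overlapping ranges. Lysosomal genes all had a higher mean (24 of 24, median 1.39), and 11 were higher without overlap, among them Atp6v1a (2.31), a subunit of the proton pump, and the glycosidases Glb1 (2.12) and Gusb (2.05).

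Matrix proteases were among the genes that differed most between the sides. Mmp3, stromelysin, ran from 9.73 to 13.12 (median 10.98) on the Ucp1-low arrays, against 4.55 to 6.70 (median 5.01) on the mesothelial-signal arrays and 4.23 to 5.64 in control BAT at 3 months. Mmp12, the elastase of macrophages, was at 11.58 to 12.82 on the Ucp1-low arrays, against 4.47 to 10.97 on the mesothelial-signal arrays and 4.21 to 4.60 in control BAT. Mmp13, a collagenase, was higher than on the mesothelial-signal arrays by 4.38, and Adam8, a membrane protease of leukocytes, by 3.37. Timp4, an inhibitor of these enzymes that adipocytes express, had a mean difference of -4.48. In all, 4 of 20 genes of this list were higher and 1 lower without overlap.

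Collagens differed little between the sides. Of 21 tested collagen and matrix genes, 17 were higher on the Ucp1-low arrays than in control BAT at 3 months without overlap (median 2.61), and 1 was higher than on the mesothelial-signal arrays (median 0.15, which turned to -0.41 with scaling to a common median). That gene was Bgn, the proteoglycan biglycan, at 13.36 to 13.83 on the Ucp1-low and 11.45 to 13.25 on the mesothelial-signal arrays. Among fibroblast genes, Thy1 and Fap, markers of activated stroma, were higher by 1.93 and 2.07. Clec3b, a gene of interstitial progenitors, had a mean difference of -1.80.

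The other immune and vascular lists did not follow the macrophages. Of 12 genes of T and B cells, 0 differed without overlap by at least 1, and Cd8b1 had the largest difference at 1.92. All 9 MHC class II genes had a lower mean on the Ucp1-low arrays (median -0.91), each with overlapping arrays. Endothelial markers were lower, with 5 of 16 lower and 0 higher without overlap (median -1.14), led by Robo4 (-1.74) and Egfl7 (-1.71). Interferon response genes Usp18 (-1.45), Isg15 (-1.38) and Ifit2 (-1.29) were lower without overlap among 22 tested.

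Proliferation genes all had a higher mean on the Ucp1-low arrays (19 of 19, median 0.88), and 0 were apart without overlap by at least 1. Against control BAT at 3 months 15 of them were higher without overlap. Top2a, the topoisomerase of dividing cells, ran from 6.66 to 7.77 on the Ucp1-low arrays, against 4.75 to 7.57 on the mesothelial-signal arrays and 4.25 to 4.54 in control BAT. Of 17 genes of the p53 and RB pathways, Cdkn1c was higher (2.14) and Cdkn2c lower (-1.61) without overlap, and both encode inhibitors of cyclin-dependent kinases. The list median was 0.11 and turned to -0.52 with scaling to a common median. In the integrated stress response list, the cystine transporter Slc7a11 was higher by 3.21, while Psat1 (-1.72) and Phgdh (-2.98), enzymes of serine synthesis, were lower without overlap.

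Liver-type transcripts varied within each side. All 17 tested genes had a lower mean on the Ucp1-low arrays (median -2.36), and 1, Igfals, was lower without overlap. Cyp2e1, a cytochrome P450, was at 4.35 to 5.17 on 7 of the 8 Ucp1-low arrays and at 8.69 on HSLAKO BAT at 7 months replicate 2, against 8.62 to 13.88 on the mesothelial-signal arrays and 9.91 to 11.38 in control BAT at 3 months. The same array had Ttr (transthyretin) at 10.48, against 5.24 to 12.14 on the mesothelial-signal arrays, and the next highest Ucp1-low array was at 4.56. Its list mean was 8.69 and that of the other 7 Ucp1-low arrays at most 6.00. The part of other tissue in these signals was not tested.

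Most genes of the male reproductive tract did not separate the sides. Of 7 tested, 5 had a lower and 2 a higher mean on the Ucp1-low arrays, 0 differed without overlap by at least 1, and the median difference was -0.07. The largest difference was that of Prm1, chosen here for its size. Prm1, the protamine of sperm, was above background on 0 of 8 Ucp1-low and 14 of 16 mesothelial-signal arrays. It ran from 4.23 to 4.47 on the Ucp1-low arrays, against 4.33 to 11.24 (median 8.32) on the mesothelial-signal arrays and 4.26 to 4.97 in control BAT at 3 months. Spink2, an inhibitor of acrosin in testis, was above background on 0 of 8 and 15 of 16 arrays. Of 9 ovary and uterus genes (median -0.05, which turned to 0.03 with scaling to a common median), Esr1, the estrogen receptor, was lower (-1.62) without overlap and 0 were higher. Adipose tissue also expresses Esr1. Of 5 erythrocyte and nerve genes, 0 differed without overlap by at least 1. Eif2s3y, a gene of the Y chromosome, ran from 7.39 to 8.53 on the Ucp1-low and from 6.59 to 7.88 on the mesothelial-signal arrays.

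Some genes lay outside both tissues. Of the 12265 genes tested, 332 were higher and 269 lower on the Ucp1-low arrays than in both other groups, without overlap and by at least 1. These groups were the mesothelial-signal arrays and control BAT at 3 months. Against the mesothelial-signal arrays alone, 430 were higher (3.51%) and 506 lower (4.13%). The limit given above for overlap with the 5 control arrays holds here too. Ranked by the smaller of both mean differences, the highest were Mmp3, Clec4n, Mmp12, Clec4d, Prl2c3, Mmp13, Lilrb4a, Panx1, Prl2c4 and Cpa3. Clec4n and Clec4d encode C-type lectins of myeloid cells, and Clec4d ran from 11.64 to 12.61 on the Ucp1-low arrays, against 4.66 to 9.99 on the mesothelial-signal arrays and 4.28 to 4.49 in control BAT. Cpa3, the carboxypeptidase of mast cells, ran from 10.03 to 11.75 on the Ucp1-low arrays, against 6.10 to 8.65 on the mesothelial-signal arrays and 4.32 to 4.85 in control BAT. Prl2c3, of the prolactin family, ran from 7.09 to 12.57 on the Ucp1-low arrays and was above background on 0 of 16 mesothelial-signal and 0 of 5 control BAT arrays. It was at least 18.7-fold higher than on the mesothelial-signal arrays, and it cannot be told from its near-identical copies such as Prl2c4 with certainty.

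By this ranking, with overlap allowed, the lowest genes were Thrsp, Cyp2e1, Ttr, Adig, Orm1, Serpina1b, Cdo1, Apoc1, Apoa2 and Igfals. Of these, Thrsp, Adig, Orm1, Cdo1 and Igfals did not overlap either group, Cyp2e1 and Apoc1 overlapped the mesothelial-signal arrays, and Ttr, Serpina1b and Apoa2 overlapped both groups. Adig, adipogenin, a small protein of adipocyte droplets, ran from 5.56 to 8.95 on the Ucp1-low arrays, against 10.21 to 12.46 on the mesothelial-signal arrays and 11.98 to 12.38 in control BAT. Cdo1, which oxidizes cysteine, ran from 7.48 to 9.35 on the Ucp1-low arrays, against 10.73 to 13.16 on the mesothelial-signal arrays and 11.82 to 12.32 in control BAT. The other genes lowest against the mesothelial-signal arrays alone were Glb1l2 (-4.60), the complement component C6 (-4.48, above background on 2 of 8 Ucp1-low arrays), and the lymphatic chemokine Ccl21a (-4.17), which has near-identical copies. Eef1a2, an elongation factor of muscle and neurons, was among the highest, by 4.32.

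By labels, a test was possible between genotypes, but all 8 arrays labelled control BAT at 7 and 12 months are mesothelial-signal arrays, so it is not independent of the rule. HSLAKO and DAKO BAT at these ages hold 3 and 2 Ucp1-low arrays among 8 each, together with arrays of high Ucp1 or high Cdkn2a. The groups were fitted with limma over all 72 arrays, with calls made where the adjusted p was under 0.01 and the log2 difference exceeded 1.5. In HSLAKO BAT, 38 genes (0.31%) rose and 355 (2.89%) fell against control BAT at 7 and 12 months. In DAKO BAT, 54 (0.44%) rose and 359 (2.93%) fell. Both comparisons share the same control arrays. The count of genes that rose depended on single arrays. In HSLAKO it was 21 without HSLAKO BAT at 7 months replicate 1 and 58 without replicate 4. In DAKO it was 35 without control BAT at 12 months replicate 1, 33 without DAKO BAT at 12 months replicate 1, 34 without DAKO BAT at 7 months replicate 4 and 85 without replicate 1.

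The deleted genes did not pass in these comparisons. Lipe had a log2 difference of -2.20 in HSLAKO (adjusted p = 0.017 from limma) and of -2.05 in DAKO (adjusted p = 0.0257 from limma). At 7 months its mean was 6.73 in HSLAKO BAT and 6.75 in control BAT, and at 12 months 5.20 in HSLAKO BAT and 9.58 in control BAT. Pnpla2 had a log2 difference of -1.27 in DAKO (adjusted p = 0.253 from limma). The labels of genotype are thus not borne out by the deleted genes at every age, and the groups are named here as labelled.

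Upk3b has no test here, since the signal of mesothelial genes named the side that holds all 8 control arrays. At 7 months it ran from 4.60 to 5.06 in HSLAKO BAT, against 8.96 to 10.03 in control BAT. At 12 months it ran from 4.44 to 4.66 in HSLAKO BAT, against 9.03 to 10.91 in control BAT. The HSLAKO levels lie at the background of the arrays. Of 13 white fat genes 12 fell in each genotype. Of the 18 muscle genes, 7 rose in HSLAKO and 4 in DAKO, with Atp2a1 higher by 5.91 in HSLAKO (standard error 1.44, adjusted p = 0.00175 from limma) and by 5.24 in DAKO (standard error 1.44, adjusted p = 0.00536). Control BAT at 7 and 12 months, all mesothelial-signal arrays, had Atp2a1 means of 4.53 and 4.71. Control BAT at 3 months ran from 10.93 to 12.05. At 7 and 12 months the means were 10.93 and 10.14 in HSLAKO BAT and 10.11 and 9.62 in DAKO BAT. Both genotypes thus lay nearer to control BAT at 3 months, and these calls are not independent of the rule. The other largest rises were Tnnc2, Pvalb, Tpm2 and Mylpf in HSLAKO and Tnnc2, Tpm2, Mylpf and Mmp3 in DAKO. By size, the largest falls in HSLAKO were Cyp2e1, Retnla, Upk3b, Ccl21a and Ttr. In DAKO they were Cyp2e1, Upk3b, Retnla, Ttr and Car3, a carbonic anhydrase of adipocytes. Upk3b stands among them by its size only, without a test. Ucp1, which chose some of these arrays, likewise has no test and ran from 4.26 to 12.72 in HSLAKO BAT at 12 months, against 4.33 to 4.69 in control BAT at 12 months.

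In arrays labelled WAT, HSLAKO held 0 and DAKO 1 of the Ucp1-low arrays, while 4 of 5 labelled ATGLAKO WAT were mesothelial-signal arrays. The 4 arrays labelled HSLAKO WAT had Ucp1 at 11.35 to 13.49 and Upk3b at 4.47 to 4.64, which are not the levels of the mesothelial-signal side. In DAKO WAT 3 of 4 arrays had Ucp1 at 11.45 to 13.40 and Upk3b at 4.40 to 4.50, and in control WAT 2 of 3 had Ucp1 at 13.29 and 13.60. Pnpla2 had a median of 13.21 in the arrays labelled ATGLAKO WAT. Against ATGLAKO WAT, 0 genes rose (0%) and 5 fell (0.0408%) in HSLAKO, and 0 rose (0%) and 13 fell (0.106%) in DAKO by limma at an adjusted p under 0.01. At an unadjusted p under 0.05 and the same fold minimum, 126 rose in HSLAKO and 223 in DAKO, and with array weights, whose estimation stopped before it converged, 220 and 185 rose at the adjusted threshold. With scaling to a common median, 35 rose and 124 fell in DAKO. The genes that fell in HSLAKO were Rhbdl1, Kcnj15, Rgs7bp, Pkhd1l1 and Grhl1. By size, the 13 in DAKO were led by Upk3b, Wt1, Heph, Rhbdl1 and Kcnj15. Mesothelial genes named the side of 4 of 5 arrays labelled ATGLAKO WAT, so the calls of Upk3b and Wt1 are no test. The other calls against ATGLAKO WAT are not independent of the rule either. One array labelled ATGLAKO WAT (replicate 5) had Ucp1 at 13.47 and Upk3b at 4.35, and without it 15 genes rose and 84 fell in HSLAKO, and 73 rose and 107 fell in DAKO.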

How the data were processed

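RNA of the 72 samples was measured on Illumina bead arrays. The authors deposited a linear intensity per probe, not normalized between arrays, with a detection p-value beside it. A second deposited table holds intensities that the authors had normalized between arrays, which were used as an alternative after taking log2. The slides are not given in the sources used here.

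The intensities were background corrected with the detection p-values (normexp, offset 16), quantile normalized and taken to log2 with neqc in limma 3.58.1 (R 4.3.3). Of 25697 probes, 23978 with 1 gene symbol, 18083 were tested, namely those above background (detection p under 0.05) on 3 arrays or more. For each of 12265 genes the probe of highest mean signal stood for the gene. No pair of arrays was identical. Within each side every array carried another mouse number. The number of arrays limits the precision.

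The sides were compared by the mean difference and by overlap of the arrays, with no test. Labelled groups were fitted in 1 limma model of 17 groups with Benjamini-Hochberg adjustment. In the array names, 8 mouse numbers occur with both tissues. The Y chromosome gene Eif2s3y differed within some of these numbers. It was 7.44 in HSLAKO BAT at 3 months replicate 3 and 4.66 in the same-numbered HSLAKO WAT replicate 1. In DAKO BAT at 3 months replicate 3 it was 4.23, and 7.84 in the same-numbered DAKO WAT replicate 3. Arrays of the same number can therefore not be taken as the same mouse. The rule took the genes of the selection and the 2 lipases, the 12 highest and 12 lowest genes without overlap, the 10 highest and 10 lowest against both groups, in each of 27 lists the 4 largest differences and all members without overlap, and the 5 largest rises and falls per labelled comparison. Cidea, Elovl3, Lpl and Acadl were chosen after their values were seen. The members, lists and tests were chosen with earlier results of these data known. The procedures were tested on simulated data. Alternatives were other background corrections and scalings, filters, probes, limits of the rule, tissue labels, models and single arrays left out.

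Same-numbered arrays did not pair: in 7 of 24 pairs of compared groups their deviations from the group means correlated above 0.1 (range -0.54 to 0.40). The numbers are replicate labels only.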

Additional observations from a re-analysis of the deposited data

Results flagged for a closer look

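Among 119 groups of arrays examined for a value far from the others, 15 held one, and chance gives about 1 in 20. On the Ucp1-low arrays, HSLAKO BAT at 7 months replicate 2 stood above the other 7 for Cyp2e1 (8.69), Ttr (10.48), Serpina1b (11.01), Apoa2 (10.84) and the mean of the liver-type list (8.69). HSLAKO BAT at 7 months replicate 1 stood below the others for the mean of the MHC class II list (7.11), and DAKO BAT at 12 months replicate 2 for the integrated stress response list (6.92). Among the labelled groups, HSLAKO BAT at 12 months replicate 3 had Ucp1 at 12.72 and Lipe at 7.14, and DAKO BAT at 12 months replicate 3 had Lipe at 7.37. DAKO BAT at 12 months replicate 1 had Cdkn2a at 9.30. In the arrays labelled WAT, ATGLAKO replicate 5 had Ucp1 at 13.47 and Upk3b at 4.35, HSLAKO replicate 1 had Upk3b at 4.64, and DAKO replicate 2, a Ucp1-low array, had Upk3b at 5.01. The last 2 values are near the background of the arrays.

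The effect of DAKO against control BAT differed between 12 and 7 months for 2 genes by limma. Adam17, a membrane protease, had an effect at 12 minus at 7 months of 1.92 (adjusted p = 0.00931 from limma), with means of 8.56 in DAKO and 7.05 in control BAT at 12 months and 7.73 in DAKO and 8.14 in control BAT at 7 months. Slc17a7, a vesicular glutamate transporter, had an effect at 12 minus at 7 months of -1.59 (adjusted p = 0.00532 from limma). Its means were 4.41 in DAKO and 5.70 in control BAT at 12 months, and 4.69 in DAKO and 4.39 in control BAT at 7 months. Only the mean of control BAT at 12 months stands clear of the background of the arrays. For both genes, all control arrays at these ages are mesothelial-signal arrays.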

How the results depend on the processing

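The number of arrays and the nearness of many genes to background limit these values, and the cause of the changes below was not tested unless the setting itself (fewer arrays, another limit) gives it. Between the sides, genes higher and lower numbered 200 and 228 with the authors' normalized values, 237 and 274 without background correction, 68 and 1545 with scaling to a common median (92 and 1169 relative to the shift of all genes), 151 and 323 without the Cdkn2a limit, and 721 and 854 when 1 array of each side could overlap. With no smallest difference 666 were higher. The share of separating genes nearer to the mesothelial-signal mean was 77.4% with the authors' values, 76.6% without background correction and 71.0% with scaling to a common median. Without the arrays labelled white, 457 genes were higher and 581 lower and the share was 80.3%. An alternative chosen after seeing the data left out both Ucp1-low arrays of low muscle signal, which gave 495 higher, 512 lower and a share of 81.4%. Leaving out single arrays, also added after seeing the data for the sides, gave 421 to 598 higher, 502 to 619 lower and a share of 77.9 to 80.9%. The difference of Tpm2 turned to -0.10 with its other probe.

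In HSLAKO BAT, genes that rose and fell numbered 5 and 103 with the authors' values, 11 and 140 without background correction, 19 and 209 with an offset of 50, and 644 and 1046 without a fold minimum. Scaling to a common median gave 873 that fell and array weights 70 that rose. The estimation of the array weights stopped before it converged, so all counts with array weights are uncertain. In DAKO BAT the same settings gave 5 and 99, 9 and 134, 19 and 200, and 672 and 1116, with 743 that fell after scaling to a common median and 131 that rose with array weights. A fit of only the compared groups gave 23 and 239. Leaving out single arrays gave 21 to 58 that rose and 312 to 398 that fell in HSLAKO BAT, and 33 to 85 and 306 to 419 in DAKO BAT. In HSLAKO WAT, 0 fell with the authors' values, without background correction and with only the compared groups, 2 with an offset of 50, 32 with scaling to a common median and 13 without a fold minimum, and array weights gave 220 that rose and 173 that fell. In DAKO WAT, 1 fell with the authors' values, 5 without background correction, 8 with an offset of 50, 6 without a filter on dim probes, 1 with only the compared groups and 27 without a fold minimum. There, 1 rose without a fold minimum, 1 with any tested probe and 1 with probes above background on at least 16 arrays. Scaling to a common median gave 35 and 124, and array weights 185 and 146. Leaving out single arrays gave 0 to 15 that rose and 0 to 84 that fell in HSLAKO WAT, and 0 to 73 and 1 to 107 in DAKO WAT. The replicate numbers are no pairing by the labels. With a replicate block, 38 rose and 352 fell in HSLAKO BAT, 50 and 353 in DAKO BAT, 0 and 14 in HSLAKO WAT and 4 and 29 in DAKO WAT. Values of single genes and lists under alternatives were sorted as follows. Between the sides, a value was the same if it shifted by less than 1 SD of the Ucp1-low arrays. In the labelled comparisons it was the same if it kept direction and side of the threshold. A change of sign was called reversed only where the main value had passed its threshold. By these rules 4903 were the same, 276 were weaker, 95 stronger, 184 moved and 1 was reversed. Of the gene counts and shares given as main results, 86 moved beyond a set limit and 235 did not.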
